A study of Mus musculus with 4 samples.

Results

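Cells hold reactive oxygen species in check with linked enzyme systems, and 55 protein-coding genes of these systems were examined in Py8119 mouse mammary tumour cells with and without overexpression of Mtss1. The genes were chosen by symbol from the 21968 protein-coding rows of a table of 50600 rows: the glutathione transferases of the alpha, kappa, mu, omega, pi, theta and zeta classes (22 genes), the glutathione peroxidases (8), the peroxiredoxins with sulfiredoxin (7), the thioredoxin system (6), superoxide dismutases with catalase (4), glutathione synthesis and recycling (4), the regulators Nfe2l2 and Keap1, and the enzymes Nqo1 and Hmox1. The rule uses no measured value, but the members were chosen with earlier results of these data known. A further 2 processed pseudogenes with matching symbols, Gpx2-ps1 and Gstm2-ps1, read at most 0.189 CPM (read counts scaled to library size) in any library and were left out.

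Glutathione is a cysteine-containing tripeptide made by glutamate-cysteine ligase and glutathione synthetase. It is used by glutathione peroxidases to reduce peroxides and by glutathione transferases to conjugate electrophiles. Thioredoxin and its reductases do parallel work and recharge the peroxiredoxins. The transcription factor NRF2 (Nfe2l2), held in check by the ubiquitin ligase adaptor KEAP1, drives many of these genes through antioxidant response elements, and much of its control is on the protein.

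Py8119 is an established mouse line of C57BL/6 mammary origin, described in the labels as mesenchymal-like and grown without treatment in IMDM with fetal bovine serum. The control group, titled hygro, and the Mtss1 overexpression group had 2 libraries each, made from total RNA. The labels do not say whether a group is a clone or a mixed population, nor which vector or promoter was used. They name no separate cultures for the libraries within a group either. P-values here therefore reflect spread among 4 libraries that may be purely technical.

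Recovered depth was 20617788 and 22081639 reads in control and 15594209 and 16656638 in overexpression, so that 3 reads correspond to 0.138 to 0.189 CPM. Mtss1 itself read 54.5 and 50.5 CPM in control and 118 and 119 CPM in overexpression. All 5 mesenchymal markers examined were expressed, and of the luminal markers Epcam and Krt19 were at 0 in every library, Cdh1 read at most 0.0920 CPM, and Krt8 and Krt18 were expressed but fell with overexpression (Krt8 from 562 and 608 to 367 and 368 CPM). The 4 hepatocyte markers were at 0 throughout, and the 6 erythroid markers summed to 0.378 to 0.955 CPM per library. In bulk RNA, more expressing cells and more RNA per cell cannot be told apart.

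The promoters of 4 members are shown first, because these genes include the largest rise (Txnip), the largest fall (Nfe2l2) and 2 textbook NRF2 targets that rose (Nqo1 and Gclm). Each is the 250 bases upstream of the RefSeq transcript start (build GRCm38.p6), on the strand of the gene. Capitals mark a match to the carbohydrate response element in Txnip, searched as a pair of CACGNG motifs with 5 bases between them. They also mark the antioxidant response element core in Nfe2l2 and Gclm, searched as TGACNNNGC. Both patterns were searched on either strand. In Gclm the core lies on the opposite strand and is read as its reverse complement.
Txnip, chr3:96557707-96557956, plus strand: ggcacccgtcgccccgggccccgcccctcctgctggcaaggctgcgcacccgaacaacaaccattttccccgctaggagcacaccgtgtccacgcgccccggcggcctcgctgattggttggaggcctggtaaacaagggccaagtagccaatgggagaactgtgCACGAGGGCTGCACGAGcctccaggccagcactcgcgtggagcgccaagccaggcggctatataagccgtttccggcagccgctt
Nqo1, chr8:107403206-107403455, minus strand: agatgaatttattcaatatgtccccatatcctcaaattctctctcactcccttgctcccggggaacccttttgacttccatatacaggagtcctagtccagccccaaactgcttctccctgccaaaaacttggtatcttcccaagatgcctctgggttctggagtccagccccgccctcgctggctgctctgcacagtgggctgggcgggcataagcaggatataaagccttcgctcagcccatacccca
Gclm, chr3:122245307-122245556, plus strand: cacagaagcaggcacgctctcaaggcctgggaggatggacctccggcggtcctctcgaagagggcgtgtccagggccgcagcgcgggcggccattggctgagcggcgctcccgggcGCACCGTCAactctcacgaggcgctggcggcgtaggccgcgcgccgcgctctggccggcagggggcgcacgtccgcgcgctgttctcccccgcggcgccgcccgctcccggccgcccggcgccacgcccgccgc
Nfe2l2, chr2:75704664-75704913, minus strand: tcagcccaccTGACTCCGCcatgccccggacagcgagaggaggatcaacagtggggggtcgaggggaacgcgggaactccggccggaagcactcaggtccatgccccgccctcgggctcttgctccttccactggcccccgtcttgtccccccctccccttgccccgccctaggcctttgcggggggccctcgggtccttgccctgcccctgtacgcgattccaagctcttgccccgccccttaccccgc

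Of the 55 genes, 40 reached 1 CPM in at least 2 libraries and were tested with limma on log2(CPM + 1), with p-values adjusted by Benjamini-Hochberg over all 12510 genes tested. The lowest value of a tested member in any library was 1.61 CPM, so none passed through 1 group alone. With Mtss1 overexpression 18 members rose, 10 fell and 12 did not pass an adjusted p of 0.05. Across all tested genes 31.9% rose, 34.2% fell and 66.1% changed in either direction, so the 70.0% of tested members that changed is close to the background. Rises made up 45.0% of the tested members and falls 25.0%. The control and overexpression libraries did not overlap for 33 of the 40 members (82.5%), beside 81.6% of all tested genes. The median log2 fold change of the tested members was 0.08, and that of all tested genes was -0.01.

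**Figure D1:**
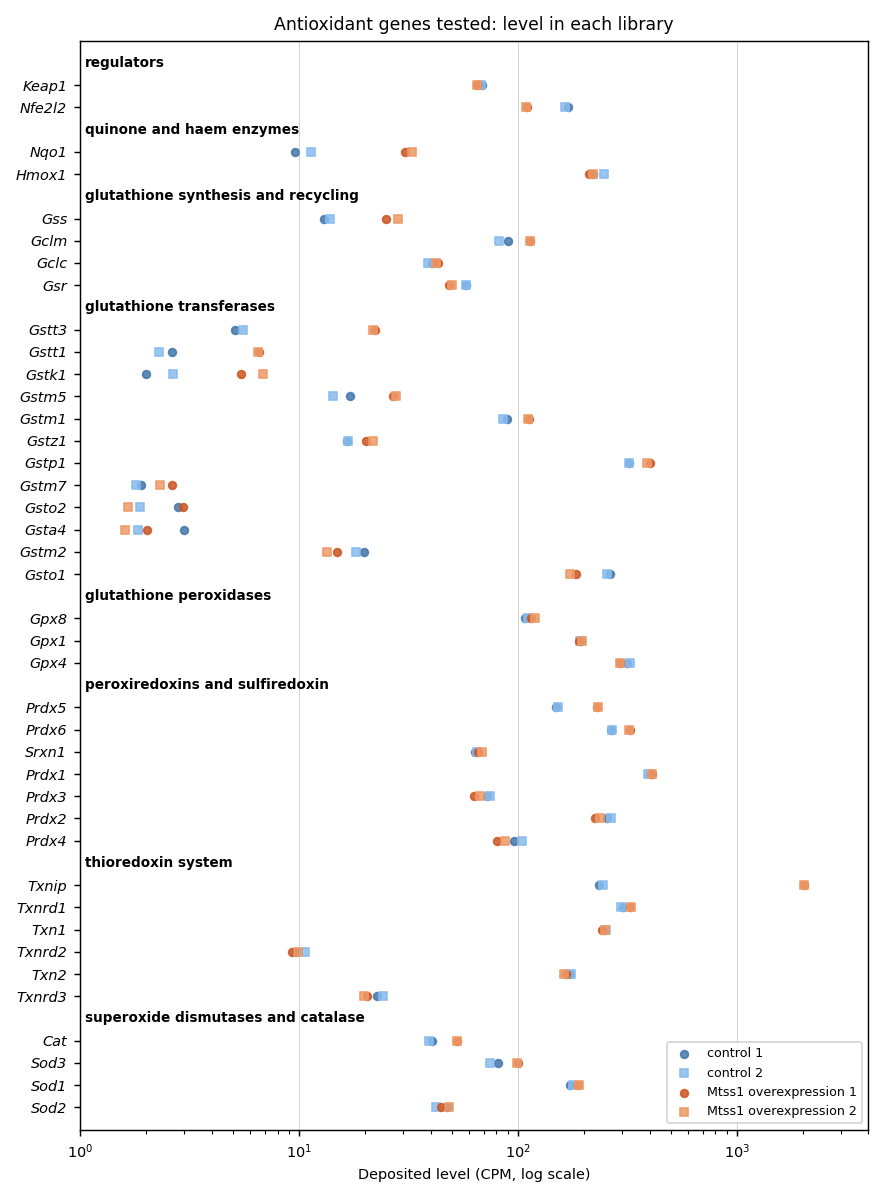
Level of each of the 40 tested antioxidant genes in the 2 control libraries (blue) and the 2 Mtss1 overexpression libraries (orange), in CPM on a log axis, grouped by role. Txnip moves from 234 and 246 CPM in control to 2028 and 2024 CPM, while for most other members the colours lie close together.

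Most differences were modest. The change reached 1.5-fold on the log2(CPM + 1) scale for 9 of the 40 members (22.5%, beside 21.4% of all tested genes), 8 of them higher and 1, Nfe2l2, lower. It reached 2-fold for 5 (12.5%, beside 8.27%), all higher: Txnip, Gstt3, Nqo1, Gstt1 and Gstk1. Summed over all 55 members the level was 4676 and 4717 CPM in control and 6629.7 and 6673 CPM in overexpression. Without Txnip the sums were 4442 and 4471 CPM against 4601 and 4649 CPM, so Txnip accounted for most of the summed rise.

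**Figure D2:**
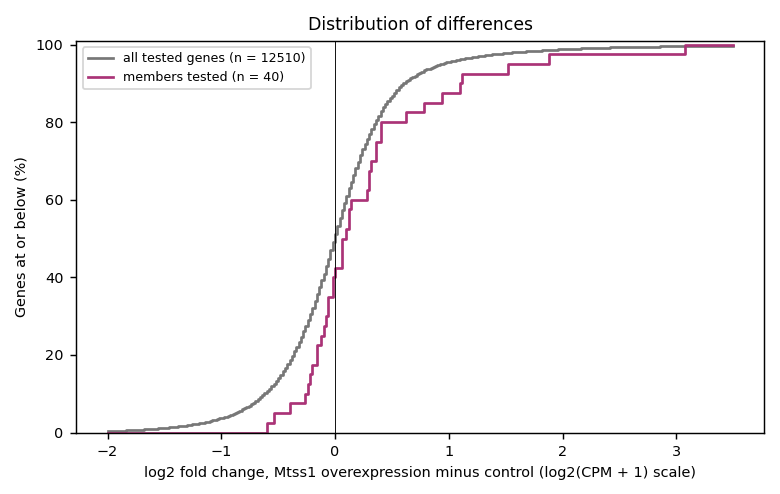
Cumulative share of genes (percent, vertical axis) at or below each log2 fold change, Mtss1 overexpression minus control (horizontal axis), for the 40 tested members and the 12510 tested genes. The members' curve lies to the right of the curve of all tested genes, with medians of 0.08 and -0.01, and its last step is Txnip at 3.07.

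The 2 regulators did not change alike. Nfe2l2 (ENSMUSG00000015839, chromosome 2, 75675513 to 75704641, minus strand, mm10) encodes NRF2. It read 170.0 and 164 CPM in control and 111 and 109 CPM in overexpression. Both overexpression libraries lay below both control libraries, a fall of 0.60 ± 0.04 (SE) on the log2 scale (limma adjusted p = 1.7e-11). Keap1, which encodes its inhibitor, read 68.4 and 68.0 CPM in control and 64.9 and 65.02 CPM in overexpression, a log2 fold change of -0.07 ± 0.05 that did not pass (limma adjusted p = 0.23). These values are RNA and do not measure NRF2 protein, which KEAP1 controls by degradation.

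Nqo1 and Hmox1, both textbook NRF2 targets, differed in direction. Nqo1 (ENSMUSG00000003849, chromosome 8, 107388225 to 107403206), a quinone reductase gene, read 9.60 and 11.4 CPM in control and 30.5 and 32.9 CPM in overexpression. Its libraries were apart by group and its mean rose 3.02-fold, from 10.5 ± 1.28 to 31.7 ± 1.70 CPM (SD, n = 2). On the log2 scale this was 1.51 ± 0.10 (limma adjusted p = 7.6e-12). Hmox1, the inducible haem oxygenase gene, read 221 and 248.7 CPM in control and 211 and 221 CPM in overexpression. The groups overlapped, and its small fall of 0.12 ± 0.05 (limma adjusted p = 0.028) was lost without control 2 (-0.03, adjusted p = 0.59) and without overexpression 1 (-0.08, adjusted p = 0.20), and became -0.20 without control 1.

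Glutathione synthesis genes were level or higher. Gss (ENSMUSG00000027610, chromosome 2, 155563181 to 155592810), glutathione synthetase, read 13.1 and 13.9 CPM in control and 25.0 and 28.3 CPM in overexpression. Every overexpression library was above every control library, and the mean rose 1.97-fold (log2 fold change 0.93 ± 0.09, limma adjusted p = 1.3e-08). The exons of Gss overlap those of Acss2, an acetyl-CoA synthetase gene on the opposite strand, over 395 bases, 6.68% of the Gss exon length. Acss2 also rose, from 23.5 and 21.1 to 50.9 and 53.7 CPM, and no source used here says whether counting used strand, so part of each gene's reads may belong to the other.

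For glutamate-cysteine ligase, the modifier subunit and the catalytic subunit gave unequal results. Gclm, the modifier subunit gene, read 90.3 and 81.9 CPM in control and 113 and 114 CPM in overexpression and rose by 0.40 ± 0.05 (limma adjusted p = 2.3e-07). Gclc, the catalytic subunit gene, read 40.7 and 38.9 CPM against 43.3 and 42.3 CPM, a log2 fold change of 0.10 ± 0.06 that did not pass (limma adjusted p = 0.16). Whether the subunits differ from each other was not tested. Gsr, whose product regenerates reduced glutathione, fell from 57.9 and 57.8 CPM to 48.4 and 49.99 CPM, by 0.23 ± 0.06.

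Glutathione transferases supplied 4 of the 8 members that rose at least 1.5-fold. Of 22 members 12 passed the expression filter, and of these 7 rose, 2 fell and 3 did not pass. The share that changed, 75%, is near the 66.1% of all tested genes. In the theta class both tested genes rose. Gstt3 (ENSMUSG00000001665, chromosome 10, 75774115 to 75781414) read 5.09 and 5.57 CPM in control and 22.3 and 21.7 CPM in overexpression, and its neighbour Gstt1 (chromosome 10, 75783813 to 75798584) read 2.65 and 2.30 against 6.55 and 6.49 CPM. For both genes the groups were well apart, with means 4.13-fold and 2.64-fold higher and log2 fold changes of 1.86 ± 0.11 and 1.12 ± 0.15 (limma adjusted p = 2.1e-12 and 1.1e-06). The other 2 genes of this cluster, which spans 63.3 kb, were near or at 0. Gstt2 read 0.0595 to 0.126 CPM and Gstt4 had no reads.

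Kappa and zeta class genes rose as well. Gstk1, a transferase of mitochondria and peroxisomes, read 2.01 and 2.67 CPM in control and 5.42 and 6.84 CPM in overexpression (log2 fold change 1.09 ± 0.16, limma adjusted p = 4.3e-06). At these low levels the fitted size depends on the pseudocount, and with 5 in place of 1 it was 0.60 for Gstk1 and 0.62 for Gstt1. Gstz1, which acts in tyrosine breakdown as maleylacetoacetate isomerase, went from 16.7 CPM in both control libraries to 20.3 and 21.8 CPM, a rise of 0.32 ± 0.09.

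Neighbouring mu class genes moved in opposite directions. The 7 genes lie within 149 kb on chromosome 3, and 4 of them were tested. Gstm1 rose from 89.3 and 85.9 to 113 and 111 CPM (log2 fold change 0.35 ± 0.05) and Gstm5 from 17.1 and 14.3 to 27.0 and 27.9 CPM (0.77 ± 0.09), while Gstm2 fell from 19.9 and 18.3 to 15.001 and 13.5 CPM (-0.40 ± 0.10, limma adjusted p = 0.0012). All 3 had groups that did not overlap. Gstm7 read 1.91 and 1.79 CPM in control and 2.65 and 2.32 CPM in overexpression and did not pass. Reads can be divided between genes with like sequence. Of the 75-base windows of Gstm1 transcripts, 11.7% recur in transcripts of Gstm2-ps1, Gstm3 or Gm8834. Of those of Gstm2, 1.85% recur in Gm12499. All of these other genes read at most 0.189 CPM in any library. Gstm5 shares 178 exon bases with the antisense gene 4933431E20Rik, which also rose, from 7.54 and 7.59 to 16.2 and 16.1 CPM.

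The abundant pi and omega class genes went opposite ways. Gstp1 read 322 CPM in both control libraries and 403 and 389 CPM in overexpression, a rise of 0.30 ± 0.03 (limma adjusted p = 1.0e-07). Its close copy Gstp2, of whose 75-base windows 44.9% occur in Gstp1, read 0.270 and 0.389 CPM in control and 0.745 and 0.859 CPM in overexpression and was under the filter. Gsto1 (ENSMUSG00000025068), a thioltransferase and dehydroascorbate reductase gene on chromosome 19, fell from 264 and 255 CPM to 184 and 173 CPM. All 4 libraries sorted by group, and the log2 fold change was -0.54 ± 0.04 (limma adjusted p = 5.1e-11). The adjacent Gsto2 read 1.67 to 2.96 CPM with overlapping groups (limma adjusted p = 0.92). Gsta4, the only alpha class gene past the filter, read 2.99 and 1.84 CPM against 2.02 and 1.61 CPM and did not pass either.

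**Figure D3:**
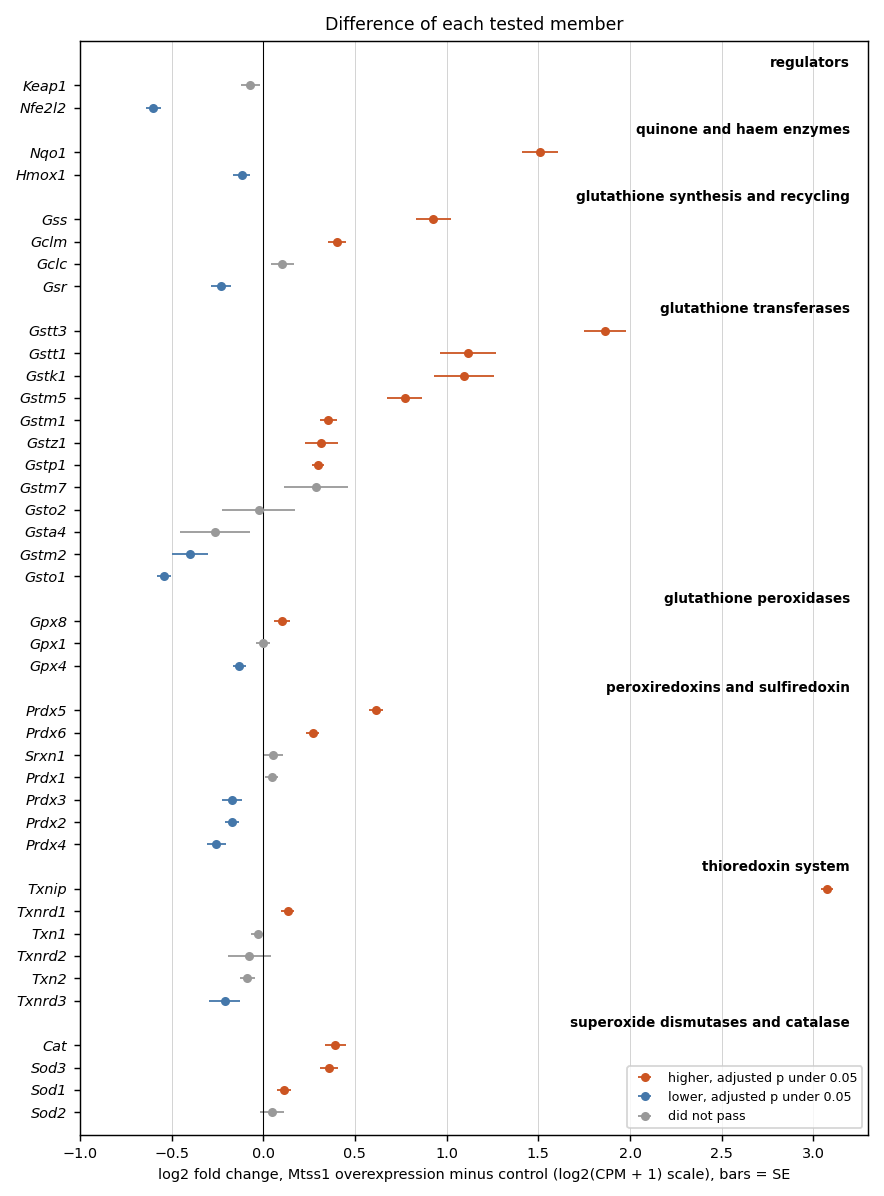
log2 fold change of each of the 40 tested members, Mtss1 overexpression minus control on the log2(CPM + 1) scale (points), with its SE (bars), grouped by role. Orange marks the 18 members that rose, blue the 10 that fell and grey the 12 that did not pass; Txnip at 3.07 and Nfe2l2 at -0.60 are the extremes.

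Glutathione peroxidases differed little. Gpx1, the abundant cytosolic enzyme, read 194 and 193 CPM in control and 191 and 196 CPM in overexpression. Its groups overlapped, and the log2 fold change of -8.8e-04 had an SE of 0.04. Gpx4, which reduces lipid hydroperoxides in membranes and protects against ferroptosis, went from 316 and 327 CPM to 293 and 294 CPM, a fall of 0.13 ± 0.04 (limma adjusted p = 0.0025). Of its 75-base windows, 29.8% occur in Gpx4-ps2, a transcribed pseudogene. Gpx8, a peroxidase of the endoplasmic reticulum, read 108 and 112 CPM against 115 and 120.4 CPM. Its rise of 0.10 ± 0.04 only just passed (limma adjusted p = 0.0499) and was lost without control 1 (0.08, adjusted p = 0.25), control 2 (0.12, adjusted p = 0.061) or overexpression 2 (0.07, adjusted p = 0.26). Gpx2, Gpx3, Gpx5, Gpx6 and Gpx7 were under the filter, with at most 6 reads in any library.

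The peroxiredoxins split by member. Prdx5 (ENSMUSG00000024953, chromosome 19, 6906697 to 6910106), found in mitochondria, peroxisomes and the cytosol, rose most, from 149 and 153 CPM to 231 and 234 CPM. The groups were clearly apart, with a log2 fold change of 0.62 ± 0.04 (limma adjusted p = 2.4e-12). Trmt112, which overlaps 409 exon bases of Prdx5 on the opposite strand, moved the other way, from 59.0 and 62.1 to 50.3 and 47.9 CPM. Prdx6, a 1-cysteine peroxiredoxin that also acts on phospholipids, rose from 267 and 270.1 CPM to 324 and 323 CPM (0.27 ± 0.03).

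Falls were seen in 3 other peroxiredoxins, all under 1.5-fold. Prdx4, the form of the secretory pathway, read 96.1 and 104 CPM in control and 80.0 and 87.5 CPM in overexpression (log2 fold change -0.26 ± 0.05). Cytosolic Prdx2 read 255 and 267 CPM against 225 and 239 CPM (-0.17 ± 0.04), and shares 173 exon bases with Junb on the opposite strand, which fell from 263 and 267 to 178 and 180.4 CPM. Mitochondrial Prdx3 read 72.2 and 74.8 CPM against 63.3 and 67.1 CPM (-0.17 ± 0.05), and its call was lost without control 2 (adjusted p = 0.063) and without overexpression 1 (adjusted p = 0.068). Prdx1 (402, 395, 409.8 and 412 CPM) and Srxn1, the sulfiredoxin gene that repairs over-oxidised peroxiredoxins (64.1, 65.4, 65.7 and 68.8 CPM), did not pass in the order control 1, control 2, overexpression 1, overexpression 2.

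Txnip stood apart from every other member. It encodes an arrestin-family protein that binds thioredoxin and restrains glucose uptake. Txnip (ENSMUSG00000038393, chromosome 3, 96557957 to 96561883, plus strand) read 234 and 246 CPM in control and 2028 and 2024 CPM in overexpression. The 2 groups were far apart. Its mean rose 8.44-fold, from 240.0 ± 8.003 to 2026 ± 2.71 CPM (SD, n = 2), which is 3.07 ± 0.03 on the log2 scale (limma adjusted p = 1.0e-25) and 3.04 to 3.11 over 13 alternative settings. It ranked 46 among 12510 tested genes by rise. By mean CPM it ranked 766 among all rows in control and 20 in overexpression. Per kilobase of exon it was at 76.9 CPM in control and 649 CPM in overexpression, above all other members there. The antisense gene Gm15441, which shares 606 exon bases with it, read 0.746 to 1.24 CPM in the 4 libraries.

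**Figure D4:**
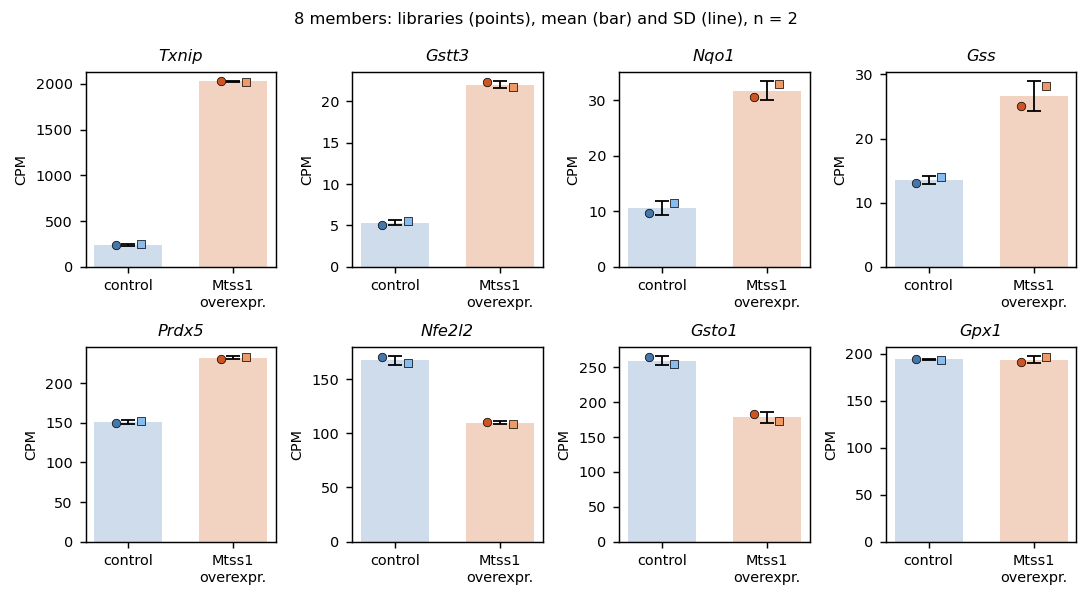
CPM of 8 members on linear axes starting at 0: control and Mtss1 overexpression libraries as points (circle for library 1, square for library 2), the group mean as a bar and the SD as a line, n = 2. Txnip, Gstt3, Nqo1, Gss and Prdx5 are higher with overexpression, Nfe2l2 and Gsto1 lower, and the Gpx1 groups overlap.

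The thioredoxins themselves did not pass. Txn1, the cytosolic thioredoxin that TXNIP binds, read 250.3 and 253 CPM in control and 242 and 250.8 CPM in overexpression, with overlapping groups and a log2 fold change of -0.03 ± 0.04 (limma adjusted p = 0.47). Mitochondrial Txn2 read 173 and 176 CPM against 165 and 163 CPM (-0.09 ± 0.04, limma adjusted p = 0.053). Among the NADPH-dependent reductases, Txnrd1 (cytosolic) rose slightly, from 302 and 297 CPM to 327 and 329.9 CPM (0.13 ± 0.03, limma adjusted p = 0.0018), and mitochondrial Txnrd2 read 9.33 to 10.6 CPM and did not pass. Txnrd3, a thioredoxin and glutathione reductase gene known from testis, fell from 22.7 and 24.3 CPM to 20.4 and 19.9 CPM (-0.21 ± 0.09, limma adjusted p = 0.035). That call was lost without control 2, overexpression 1 or overexpression 2 (adjusted p = 0.22, 0.060 and 0.10).

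Catalase and the superoxide dismutases were level or higher. Cat, the peroxisomal enzyme that splits hydrogen peroxide, read 40.6 and 39.3 CPM in control and 52.7 and 52.9 CPM in overexpression (log2 fold change 0.39 ± 0.06, limma adjusted p = 4.9e-06). The extracellular dismutase gene Sod3 rose from 80.9 and 74.5 CPM to 100.7 and 99.0 CPM (0.36 ± 0.05). Neither gene's groups overlapped. Cytosolic Sod1 read 173 and 178 CPM against 189 and 191 CPM, a rise of 0.11 ± 0.04 that was lost without control 1 (adjusted p = 0.11) or overexpression 2 (adjusted p = 0.063). Sod2, the mitochondrial enzyme and a known NF-kB target, read 47.6 and 42.2 CPM in control and 44.6 and 48.3 CPM in overexpression, with overlapping groups (0.05 ± 0.07, limma adjusted p = 0.55). Of the 75-base windows of Sod2, 12.4% occur in Rps6ka2, a gene named here after its values were seen. Rps6ka2 read 11.5 and 10.8 CPM in control and 31.8 and 29.2 CPM in overexpression.

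Compared per kilobase of exon, the control cells had the highest levels for Txn1 (239.5 CPM), Gstp1 (208 CPM) and Gpx4 (186 CPM), followed by Gpx1 (135 CPM), Hmox1 (134 CPM), Prdx1 (131 CPM) and Gsto1 (128 CPM). In overexpression the order of the first few was Txnip (649 CPM), Gstp1 (256 CPM) and Txn1 (235 CPM). These levels use the exon length of all annotated transcripts of a gene, so a gene with long unused exons is understated. The 5 members at 0 in all 4 libraries were Gsta2, Gstt4, Gpx2, Gpx5 and Gpx6. The other 10 under the filter, Gsta1, Gsta3, Gstm3, Gstm4, Gstm6, Gstp2, Gstp3, Gstt2, Gpx3 and Gpx7, read at most 0.859 CPM, and all but Gstm6, Gstp2 and Gpx3 had at most 3 reads in any library.

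Members of 2 known subgroups, chosen after the values were seen, went in both directions. Of 11 tested textbook NRF2 targets among the members, 5 rose (Nqo1, Gclm, Gstm1, Gstp1 and Txnrd1), 2 fell (Hmox1 and Gsr) and 4 did not pass (Gclc, Srxn1, Prdx1 and Gsta4). Of 5 tested selenoprotein genes, which encode enzymes with selenocysteine in the active site, 1 rose (Txnrd1), 2 fell (Gpx4 and Txnrd3) and 2 did not pass (Gpx1 and Txnrd2). Both sets of counts stand beside 31.9% higher, 34.2% lower and 66.1% changed among all tested genes. Whether either subgroup differs from these shares was not tested.

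Motifs were searched in the RefSeq windows from 250 bases before to 50 after each transcript start, which were present for 48 of the 55 members. No window was present for Hmox1, Gclc, Gsr, Gsta4, Prdx6, Sod3 and Gstt2. The split by core below therefore leaves out Hmox1, Gclc, Gsr and Gsta4, which are among the textbook NRF2 targets named above. The Txnip window held 1 carbohydrate response element, from -85 to -69 with the start at 0. That pattern occurred in 16 of 32851 windows of this length (0.0487%). The antioxidant response element core TGACNNNGC occurred in 12.4% of all windows and in 9 of the 61 windows of members (14.8%), some members having several. Of the 34 tested members with a window, 8 held a core. Of these 8, Gclm, Gstm5, Sod1 and Txnrd1 rose, Nfe2l2 fell, and Gstm7, Prdx1 and Srxn1 did not pass. Of the 26 tested members without a core, 12 rose, 7 fell and 7 did not pass. The median log2 fold change was 0.12 with a core and 0.02 without. Among all tested genes 31.9% rose and 34.2% fell. The letters searched fix TGAC at the front. The Gstp1 and Srxn1 windows, for example, hold TGAGTCAGC, with G in place of C, which was not counted. Gstp1 therefore stands among the members without a core, and the split covers the TGAC form only. The Nqo1 window, from a gene that rose 3.02-fold, held no match, and enhancers outside the window were not searched. Below are the cores of 5 members in capitals with 15 bases on either side, each printed on the strand that reads TGAC first, to show how much they differ between the fixed letters; the Prdx1 core also contains the AP-1 motif TGACTCA.
Gstm5, chr3:107895797-107895835, plus strand: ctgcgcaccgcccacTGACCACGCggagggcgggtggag
Sod1, chr16:90220691-90220729, minus strand: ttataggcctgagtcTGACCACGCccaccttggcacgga
Txnrd1, chr10:82859099-82859137, minus strand: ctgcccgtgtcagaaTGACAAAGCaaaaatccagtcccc
Prdx1, chr4:116685451-116685489, minus strand: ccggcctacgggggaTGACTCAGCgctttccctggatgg
Gstm7, chr3:107931720-107931758, minus strand: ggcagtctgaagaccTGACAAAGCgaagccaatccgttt

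**Figure D5:**
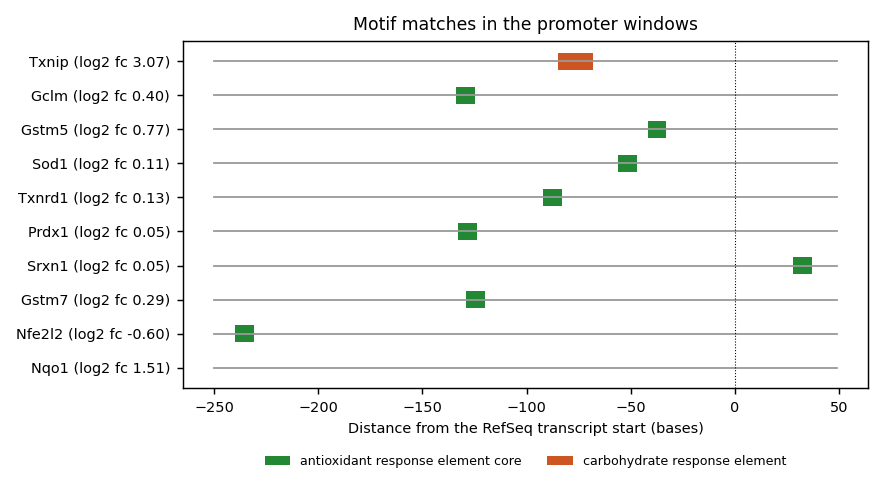
Matches of the antioxidant response element core (green) and the carbohydrate response element (orange) by distance in bases from the RefSeq transcript start (dotted line at 0), for the tested members with a match and for Nqo1; each line spans the window from 250 bases before the start to 50 from it on. The log2 fold change is beside each name. Txnip at 3.07 holds the only match to the carbohydrate element, and Nqo1 at 1.51 holds no match.

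Genes around the members were read from lists of pathway genes, whose counts stand beside 31.9% higher, 34.2% lower and 66.1% changed among all tested genes. Of 24 tested regulators and partners of NRF2, 6 rose, 9 fell and 9 did not pass (62.5% changed), with a median of -0.05 and a mean of 0.01. Bach2, a repressor gene, rose by 1.44 ± 0.15 on the log2 scale (2.53 to 8.56 CPM), the small MAF partner gene Mafk from 40.3 to 74.4 CPM (0.87 ± 0.06) and Pgam5 by 0.39 ± 0.06. Trim21 (-0.73 ± 0.10), the coactivator gene Ep300 (-0.58 ± 0.04, 217 to 144 CPM) and Dcaf11 (-0.42 ± 0.08) fell. Without overexpression 1, 5 genes of this list fell and 4 rose. Of 36 other NRF2 target genes tested, 15 rose, 14 fell and 7 did not pass (80.6% changed), with a median of -0.01 and a mean of 0.21. Htatip2 read 1.62 and 0.782 CPM in control and 35.9 and 36.1 CPM in overexpression (4.10 ± 0.15). It passed the filter only through overexpression, where it is high, and with 1 CPM required in all libraries 14 genes of the list rose. Rises were also seen for the microsomal transferase gene Mgst1, from 12.1 to 39.1 CPM (1.62 ± 0.09), and the biliverdin reductase gene Blvrb, from 34.3 to 77.9 CPM (1.16 ± 0.06), whereas Slc7a11 (-1.32 ± 0.05), Ugt1a6a (-0.65 ± 0.11) and Gla (-0.59 ± 0.06) fell.

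Cysteine is needed for glutathione synthesis, and NADPH feeds both the glutathione and the thioredoxin system. Of 24 tested genes for glutathione metabolism and cysteine supply, 7 rose, 11 fell and 6 did not pass (75% changed, median -0.19). The cystathionine gamma-lyase gene Cth fell from 151 to 43.9 CPM (-1.76 ± 0.05) and the cystine importer gene Slc7a11 from 137 to 54.6 CPM. Dpep2 read 1.81 and 1.66 CPM in control and 0.315 and 0.0595 CPM in overexpression. It passed the filter only through control, where it is high, and with 1 CPM required in all libraries 10 genes of the list fell. Besides Mgst1, Ggt7 (7.34 to 23.2 CPM, 1.54 ± 0.11) and Ggct, which encodes gamma-glutamylcyclotransferase (2.66 to 8.45 CPM, 1.37 ± 0.14), rose. Of 19 NADPH supply genes, 4 rose, 12 fell and 3 did not pass (84.2% changed, 63.2% lower, median -0.15). Tkt (319 to 481 CPM, 0.59 ± 0.03) and Taldo1 (0.43 ± 0.04), of the non-oxidative branch of the cytosolic pentose phosphate pathway, and the malic enzyme gene Me1 (0.45 ± 0.05) rose. NADPH itself was not measured. The mitochondrial one-carbon genes Mthfd1l (147 to 60.8 CPM, -1.26 ± 0.05) and Aldh1l2 (262 to 117 CPM, -1.16 ± 0.05) and the transhydrogenase gene Nnt (-0.73 ± 0.07) fell.

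Other redox proteins moved in both directions. Of 26 glutaredoxins, methionine sulfoxide reductases and thioredoxin-like genes, 14 rose, 10 fell and 2 did not pass (92.3% changed, median 0.14, mean -0.02). Nxn, the nucleoredoxin gene (0.83 ± 0.07), Tmx4 (0.50 ± 0.05) and Sesn3 (0.49 ± 0.07) rose most, and Msra, a methionine sulfoxide reductase gene (8.47 to 2.09 CPM, -1.62 ± 0.16), Sesn2 (-1.31 ± 0.08) and Txnl4b (-0.77 ± 0.16) fell most. Of 22 genes for selenocysteine synthesis and other selenoproteins, 10 rose, 7 fell and 5 did not pass (77.3% changed, median 0.02). Selenom (0.77 ± 0.09), Pstk, a kinase of selenocysteine synthesis (0.51 ± 0.10), and Selenoo (0.48 ± 0.07) rose, while Scly, the selenocysteine lyase gene (-0.86 ± 0.06), Selenop (-0.85 ± 0.07) and Selenot (-0.41 ± 0.04) fell.

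Of 20 tested genes for oxidant sources and metal handling, 4 rose, 10 fell and 6 did not pass (70.0% changed, median -0.40). Among the falls Ncf4, an NADPH oxidase subunit gene named here after its values were seen, passed the filter only through control (1.22 and 1.06 against 0.378 and 0.417 CPM), and 9 fell with 1 CPM required in all libraries. The metallothionein genes Mt2 (149 to 35.1 CPM, -2.06 ± 0.05) and Mt1 (264 to 86.6 CPM, -1.60 ± 0.04) and the transferrin receptor gene Tfrc (146 to 72.6 CPM, -1.002 ± 0.05) fell most. The iron exporter gene Slc40a1 rose from 1.41 to 4.83 CPM (1.28 ± 0.18), the copper chaperone gene Atox1 by 0.23 ± 0.06 and the oxidase gene Ero1lb by 0.23 ± 0.06. Of 18 ferroptosis regulators, 5 rose, 9 fell and 4 did not pass (77.8% changed, median -0.07). Mboat2 read 0.294 and 0.322 CPM in control and 3.47 and 4.34 CPM in overexpression (1.90 ± 0.19). It passed the filter only through overexpression, and with 1 CPM required in all libraries 4 genes of the list rose. Gch1, which makes tetrahydrobiopterin precursors (1.08 ± 0.10), rose besides Slc40a1, and the ferrireductase gene Steap3 (12.9 to 1.70 CPM, -2.39 ± 0.17) fell besides Slc7a11 and Tfrc. Several genes stand on more than 1 list, so the counts are not independent.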

How the data were processed

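Expression was analysed from the table of CPM values deposited by the authors for 2 control and 2 Mtss1 overexpression libraries. The unit was read from the values: column sums lie between 982877 and 1016225, and each library has a constant step per read. The build was mm10 and the tools FastQC 0.11.2, RSEM and STAR, per the submitters' processing notes. Their settings and the scaling are not given in the sources used here. Dividing by the step gave whole reads (within 0.005) for 79.6% to 80.5% of nonzero values, so the recovered values were handled like RSEM counts in an alternative only. Between libraries of a group the median chi-square was 2.03 (control) and 1.77 (overexpression) times the Poisson value. Between same-numbered libraries of the 2 groups it was 27.9 times that value. The libraries of a group were kept as 2 replicates, but these ratios do not show that they are separate cultures.

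Where 2 or more libraries reached 1 CPM, a gene was tested on log2(CPM + 1), using lmFit and eBayes with a trend from limma 3.58.1 (R 4.3.3), adjusted by Benjamini-Hochberg over 12510 genes, threshold 0.05. Fold changes on this scale understate the change of low genes, and ± after a log2 fold change is the SE. Residual degrees of freedom were 2 and the prior added 20.0. Coordinates and exon lengths came from GENCODE M21, on the same build, which matched 50376 of 50600 identifiers, and promoters from RefSeq (GRCm38.p6). For a symbol on several rows, the row with the highest mean was read. Every member is accounted for, and from each pathway list up to 3 risen and 3 fallen genes outside the members are named by size of change. The members and lists were chosen with earlier results of these data known; genes that overlap a member were named after their values were seen.

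Simulated data with real means and depths, in which 200 genes were changed, served to test the script. Among 12378 genes tested it found 70.0% of 1.25-fold and 97.9% of 2-fold changes, and 9 of its 185 calls were false. The simulated dispersion was set to 0.001, and far fewer genes were changed than the 66.1% called in the real data. These rates therefore need not carry over to the real data. Alternatives were each library left out in turn, limma-voom, median-of-ratios and library-size scaling, no filter, 1 CPM in all libraries, pseudocounts of 0.1 and 5, a replicate block, and an adjusted p of 0.01.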

Additional observations from a re-analysis of the deposited data

How the results depend on the processing

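Over 13 alternatives the 40 tested members gave 520 values, of which 495 kept their side of the threshold. A further 24 lost their call, 1 gained it (Prdx1, 0.08 with library-size scaling) and 0 changed sign while called. The lost calls were those of Gpx8, Hmox1, Txnrd3, Sod1 and Prdx3. Among members that did not pass, the sign differed in at least 1 setting for Gpx1, Gsto2, Txn1 and Sod2, and these values are counted within the 495. The number of members that rose was 16 to 19 and that fell 7 to 10. Of the regulators and partners of NRF2, 9 fell, but 5 did with library-size scaling, 5 at an adjusted p of 0.01, and 5 to 7 when a library was left out; the cause was not tested. Leaving out a library leaves 1 sample in a group, which is then assumed to vary like the other group.

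Replicate numbers are shared between the groups, but same-numbered libraries did not deviate together (correlation -0.02), so they share only a number. With a replicate block 17 members rose and 10 fell, and Gpx8 lost its call (adjusted p = 0.051). With 2 libraries a group and depths from 15594209 to 22081639 reads, members under 1 CPM could not be tested.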

Other observations

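Some relatives and known regulators of Txnip were read after its value had been seen. Txnip belongs to the alpha-arrestin family, of which Arrdc1 to Arrdc4 were also read. Its transcription is known to respond to glucose through MLXIP (MondoA) and MLXIPL (ChREBP), which act with MLX. Arrdc4, the relative usually named with Txnip as a target of these factors, read 0.294 and 0.828 CPM in control and 0.819 and 0.655 CPM in overexpression, with overlapping groups, and was under the expression filter. Arrdc2 rose from 10.7 and 13.5 to 20.2 and 22.3 CPM (log2 fold change 0.77 ± 0.11, limma adjusted p = 2.0e-06) and Arrdc1 from 18.3 and 18.5 to 26.5 and 24.1 CPM (0.44 ± 0.09), while Arrdc3 fell from 80.9 and 87.2 to 56.6 and 62.4 CPM (-0.49 ± 0.06). Among the regulators, Mlxip rose from 54.2 and 55.0 to 72.6 and 63.3 CPM (0.31 ± 0.06), Mlx fell from 46.1 and 40.2 to 32.2 and 35.6 CPM (-0.34 ± 0.07), and Mlxipl read at most 0.189 CPM.

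Markers of other cell types and states moved in both directions. Cd68, a lysosomal gene of macrophages, rose from 19.8 and 17.4 to 91.9 and 92.4 CPM, and Fabp4, a fatty acid binding protein gene of adipocytes, from 38.6 and 34.9 to 83.1 and 83.3 CPM. The defining leukocyte marker Ptprc read at most 0.0980 CPM, Itgam, Adipoq and Lep were at 0 in every library, and Plin1 read at most 0.0460 CPM. Both tested luminal markers fell: Krt8, and Krt18 from 286 and 285 to 234 and 235 CPM, and the 5 luminal markers summed to 849 and 893 CPM in control and 601 and 602 CPM in overexpression. Of the 5 mesenchymal markers, Zeb1 and Col1a1 rose, Fn1 and Cdh2 fell, and Vim did not pass. The part of these changes in the members' values was not tested.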
